A study of Mus musculus with 22 samples.

Results

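Cell cycle genes of DNA replication and mitosis were followed through mouse hearts under exercise and under disease. The 46 genes were chosen by name as rows of a deposited expression table of 23359 genes, and all 46 were present in it. They comprise 16 genes of replication, 25 genes of mitosis, and 5 G1 cyclins and inhibitors of cyclin-dependent kinases (CDKs). The choice was made with earlier results of these data known, so counts of members describe and do not support. The values are FPKM, fragment counts scaled to transcript length and library size, from poly(A) RNA of heart cells. All mice were male wild-type C57BL/6 animals in postnatal weeks 10 to 14. The fibroblast groups were 5 days of MI (2 libraries), 10 days of swimming (3 libraries), 4 days of swimming (3 libraries), 10 days of TAC (3 libraries), 3 days of TAC (3 libraries), a sham for the 3-day TAC (2 libraries) and sedentary mice (3 libraries). Cardiomyocytes of sedentary mice gave 3 further libraries. The labels leave MI and TAC unexpanded; in heart research they usually stand for myocardial infarction and for transverse aortic constriction, a banding of the aorta. The MI group was set against both the sedentary and the sham libraries, the 3-day TAC group against the sham libraries, and every other group against the sedentary ones. These comparisons therefore share their controls. No label states that the libraries of a group came from separate animals, so every p-value measures the spread between these libraries, which may be technical.

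A dividing cell first licenses its replication origins in G1 by loading the MCM helicase, then copies its DNA in S phase behind the sliding clamp PCNA, using nucleotides supplied by ribonucleotide reductase and thymidylate synthase. In G2 and M phase CDK1 with cyclins A2, B1 and B2 drives mitotic entry. Kinesins and microtubule-binding proteins build the spindle, and the anaphase-promoting complex ends mitosis by marking cyclin B and securin for destruction. Genes of the first wave are classic targets of E2F factors. Many genes of the second wave are repressed in quiescent cells by the DREAM complex and share a promoter element named CHR together with CCAAT boxes. Resident fibroblasts of the adult heart rarely divide at rest and are known to enter the cycle after injury, and adult cardiomyocytes are largely withdrawn from it.

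The 22 libraries were estimated from the spacing of their lowest FPKM values to hold 41600000 to 146000000 fragments each. Yet 15 of the 46 genes fell under an estimated 10 fragments in at least 1 library of the 10-day swim group and 13 did so in the 4-day swim group. Summed FPKM of 10 fibroblast markers lay between 123 and 296 in the cardiomyocyte libraries and between 971 and 3736 in the 19 fibroblast libraries. Summed FPKM of 10 cardiomyocyte markers lay between 13911 and 17977 in cardiomyocytes and between 62.1 and 748 in fibroblast libraries, with 179 to 748 in the 10-day TAC group. Macrophage and monocyte markers (13 genes in the table) summed to 1010 and 1016 FPKM in the MI libraries, 985 to 1204 in 10-day swim, 1352 to 1712 in 4-day swim, 908 to 1283 in 10-day TAC, 1013 to 1286 in 3-day TAC, 869 and 1826 in sham, 150 to 277 in cardiomyocytes and 592 to 791 in sedentary fibroblasts. Their part in the results was not tested. In such bulk RNA, more cells in cycle, more of another cell type and more RNA per cell cannot be told apart. Both MI titles carry 1 date and the third sedentary fibroblast and cardiomyocyte libraries another, so that date and MI cannot be told apart.

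Promoter sequences of the RefSeq annotation of GRCm38.p6, from 250 bases before to 50 bases after the start of the gene, were available for 37 of the 46 genes. They were searched on both strands for short elements. An E2F match was TTCCCGC or, with other letters in the core of the element, TTGGCGC or else the last form that was searched, TTCGCGC. A CHR match was TTTGAA or, in the form that differs in its middle, TTCGAA. Boxes of CCAAT were counted as well. A CHR match stood in 16 of 20 mitosis promoters (80.0%) and in 3 of 14 replication promoters (21.4%), against 19.4% of 27025 promoters of all genes. An E2F match stood in 3 of 20 mitosis promoters (15.0%) and in 8 of 14 replication promoters (57.1%), against 8.21% of all promoters. CCAAT stood in 85% of the mitosis and 57.1% of the replication promoters, against 37.9% of all. CHR together with CCAAT stood in 75.0% of the mitosis promoters against 7.70% of all. The 4 promoters below show these layouts in genes whose RNA is described further on, with matches in capitals. Rrm1, which encodes the large subunit of ribonucleotide reductase, lies at chr7:102441445-102441744 on the plus strand and has 1 E2F match between 2 CCAAT boxes. Cenpa, the centromeric histone H3 variant, lies at chr5:30666636-30666935 on the plus strand with 1 CHR and 2 CCAAT boxes, read here as ATTGG on the opposite strand. Ube2c, the ubiquitin-conjugating enzyme of the anaphase-promoting complex, lies at chr2:164769679-164769978 on the plus strand, with 6 CCAAT boxes, a pair of them overlapping, and a CHR read as TTCAAA on the opposite strand. Ccnb1 (cyclin B1), at chr13:100786437-100786736 on the minus strand, held no CHR match in this window; 1 of its 2 CCAAT boxes overlaps an E2F match, read as GCGCCAA on the opposite strand. A match is a description of letters and says nothing of binding.
Rrm1: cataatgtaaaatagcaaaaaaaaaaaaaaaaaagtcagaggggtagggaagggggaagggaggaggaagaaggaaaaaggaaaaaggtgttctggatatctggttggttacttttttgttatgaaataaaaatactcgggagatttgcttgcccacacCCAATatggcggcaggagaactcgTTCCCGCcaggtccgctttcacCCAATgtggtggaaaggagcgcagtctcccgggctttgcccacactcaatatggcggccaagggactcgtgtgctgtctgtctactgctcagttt
Cenpa: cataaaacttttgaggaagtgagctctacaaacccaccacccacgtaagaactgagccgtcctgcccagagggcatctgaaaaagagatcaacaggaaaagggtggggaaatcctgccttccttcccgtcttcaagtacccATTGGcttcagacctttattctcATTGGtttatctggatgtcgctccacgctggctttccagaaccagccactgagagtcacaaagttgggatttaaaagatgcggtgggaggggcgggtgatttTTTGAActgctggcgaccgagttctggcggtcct
Ube2c: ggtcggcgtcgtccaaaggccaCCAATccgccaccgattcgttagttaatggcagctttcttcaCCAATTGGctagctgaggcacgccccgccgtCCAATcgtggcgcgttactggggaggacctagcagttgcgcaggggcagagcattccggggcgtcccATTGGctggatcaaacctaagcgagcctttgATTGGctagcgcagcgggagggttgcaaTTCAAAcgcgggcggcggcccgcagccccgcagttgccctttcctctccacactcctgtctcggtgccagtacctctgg
Ccnb1: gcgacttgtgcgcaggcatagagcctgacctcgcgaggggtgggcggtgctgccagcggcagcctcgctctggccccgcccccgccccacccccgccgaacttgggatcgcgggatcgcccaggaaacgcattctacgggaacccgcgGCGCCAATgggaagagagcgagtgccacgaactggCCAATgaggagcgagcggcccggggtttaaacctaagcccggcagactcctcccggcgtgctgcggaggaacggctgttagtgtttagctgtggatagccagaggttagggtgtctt

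In most groups the 46 genes were expressed at low level, with a few exceptions. Of the 25 mitosis genes, a group mean of at least 1 FPKM was reached by 11 in MI, 3 in 10-day swim, 3 in 4-day swim, 9 in 10-day TAC, 10 in 3-day TAC, 3 in sham, 2 in cardiomyocytes and 2 in sedentary fibroblasts. Of the 16 replication genes it was reached by 9 in MI, 6 in 10-day swim, 6 in 4-day swim, 11 in 10-day TAC, 13 in 3-day TAC, 6 in sham, 2 in cardiomyocytes and 5 in sedentary fibroblasts. The heat map of all 46 genes shows the MI and TAC columns as the ones in which many mitosis rows brighten. Mki67 and Top2a stay dark in the TAC columns, as do other mitosis genes, among them Kif11, Bub1 and Cenpf (0.0582, 0.0695 and 0.00412 FPKM in 3-day TAC). The most abundant replication gene in every fibroblast group was Pcna, the sliding clamp, with group means of 19 to 40.8 FPKM, and the most abundant of the other members was Cdkn1a, which encodes the CDK inhibitor p21, with 43.1 to 68.8 FPKM. The most abundant spindle gene was Stmn1 (stathmin, which destabilizes microtubules), and the least abundant mitosis gene in sedentary fibroblasts was Cenpf, a kinetochore protein, at 0.0129 FPKM.

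**Figure D1:**
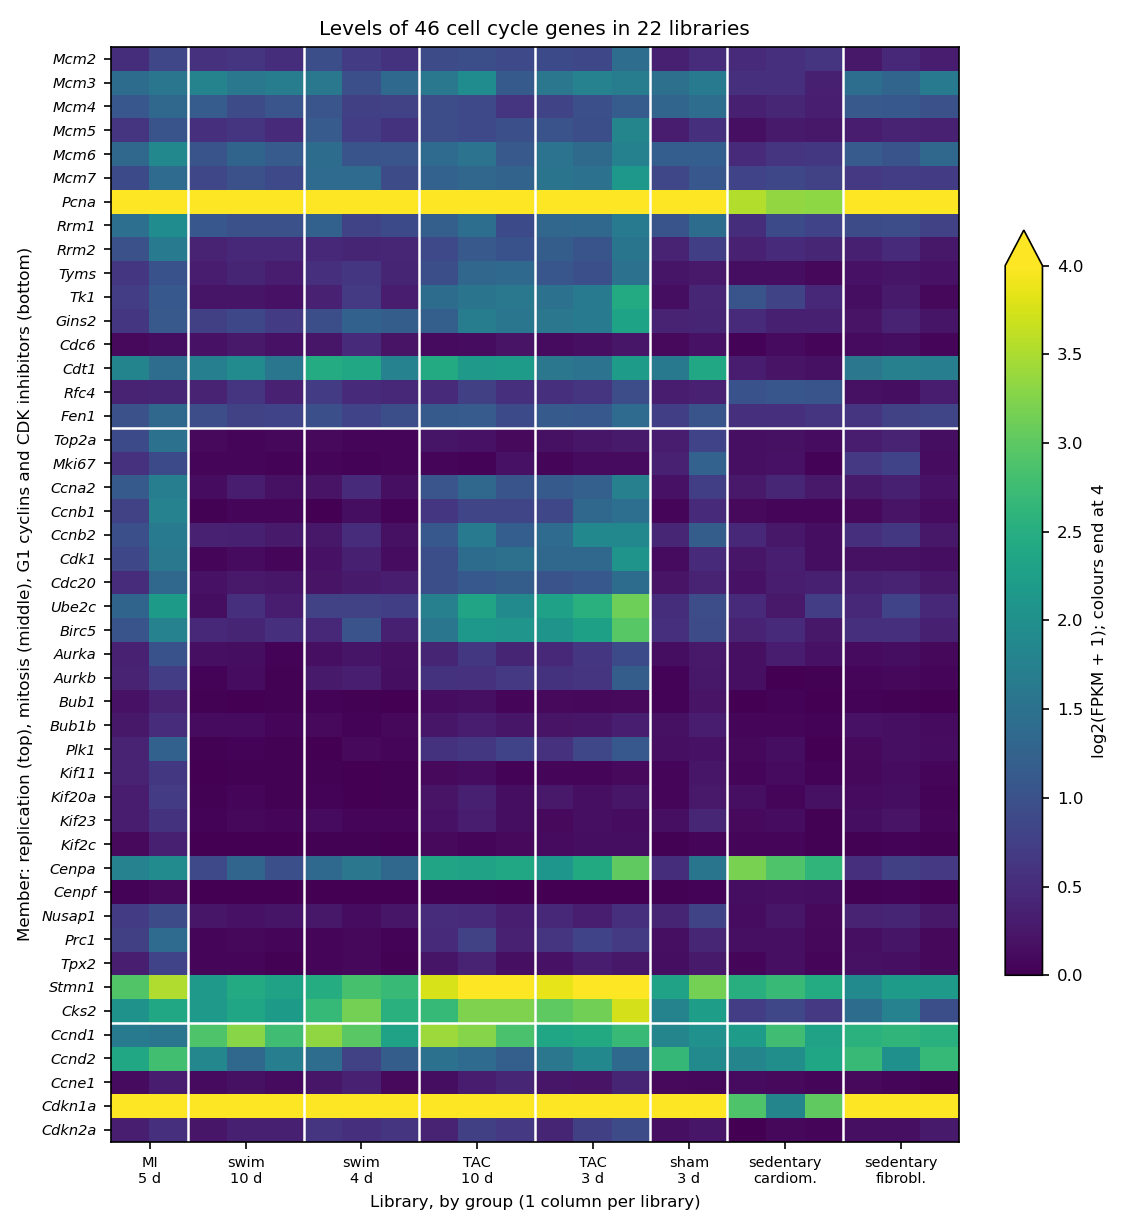
Heat map of log2(FPKM + 1) for the 46 genes (rows, by arm) in the 22 libraries (columns, by group); the colour scale ends at 4. Pcna and Cdkn1a are bright in every fibroblast column, while many mitosis rows brighten in the MI, 10-day TAC and 3-day TAC columns.

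Fibroblasts after 5 days of MI held more RNA of the mitotic cyclins, of the anaphase-promoting machinery and of nucleotide synthesis than fibroblasts of sedentary mice. Differences were tested with limma on log2(FPKM + 1) over the 19 fibroblast libraries, which understates changes of low genes, for the 9425 genes with at least 1 FPKM in at least 2 of these libraries. This filter kept 27 of the 46 genes. It left out Mcm2, Cdc6 and Rfc4 of replication, Top2a, Mki67, Aurka, Aurkb, Bub1, Bub1b, Kif11, Kif20a, Kif23, Kif2c, Cenpf, Nusap1, Prc1 and Tpx2 of mitosis, and Ccne1 and Cdkn2a, which were tested in a second fit without a filter, with a pseudocount of 0.1, over 20787 genes. A gene may pass the filter through the group in which it is high, so counts over the 27 genes describe and do not support. At a Benjamini-Hochberg adjusted p under 0.05, 10 mitosis and 4 replication genes were higher in MI, where 8.93% of all genes tested were, and 1 gene, the G1 cyclin Ccnd1, was lower, where 2.34% were. The median log2 fold change was 1.06 for the 11 mitosis genes tested, 0.45 for the 13 replication genes and 0.10 for all genes. Beside this, 2 of 13 macrophage markers were called higher in MI; their part in the result was not tested.

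Among the cyclins, Ccnb1 stood at 0.725 and 2.43 FPKM in the MI libraries, against 0.0727, 0.160 and 0.0854 FPKM in the sedentary ones. Both MI libraries lay above every sedentary library, and the log2 fold change was 1.14 (SE 0.214, limma adjusted p = 0.00181). Cdk1, the kinase these cyclins activate, stood at 0.816 and 2.02 FPKM in MI and at 0.129, 0.133 and 0.111 FPKM in sedentary libraries (log2 fold change 1.06, SE 0.218, limma adjusted p = 0.00377). Ccna2, the cyclin of late S phase and mitotic entry, differed by 1.15 (limma adjusted p = 0.000809) and Ccnb2 by 0.82 (limma adjusted p = 0.0269), whereas Cks2, a small CDK accessory protein, differed by 0.83 without passing (limma adjusted p = 0.0588). Both genes of the anaphase-promoting arm were higher. Ube2c stood at 1.43 and 3.53 FPKM in MI and at 0.378, 0.755 and 0.375 FPKM in sedentary libraries (log2 fold change 1.15, SE 0.259, limma adjusted p = 0.00703). The activator Cdc20 differed by 0.58 (limma adjusted p = 0.0368). Among kinases and the chromosomal passenger complex, Birc5 (survivin) differed by 0.92 (limma adjusted p = 0.0301) and the polo-like kinase Plk1 by 0.68 (limma adjusted p = 0.0172). Cenpa averaged 2.61 ± 0.284 FPKM in MI and 0.582 ± 0.114 FPKM in sedentary fibroblasts (SD, n = 2 and 3). Its log2 fold change of 1.19 (limma adjusted p = 0.0053) was the largest of the 14 on the log2(FPKM + 1) scale. This ranking depends on the pseudocount of 1, since Ccnb1 averaged 1.58 FPKM in MI and 0.106 FPKM in sedentary fibroblasts. Stmn1 stood at 6.52 and 10.5 FPKM in MI and at 2.75, 3.64 and 3.47 FPKM in sedentary libraries (log2 fold change 1.12, limma adjusted p = 0.0136).

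In replication, all 4 nucleotide supply genes were higher in MI, while none of the 7 tested genes of origin licensing and the helicase passed. Rrm2, a small subunit of ribonucleotide reductase, stood at 0.991 and 2.12 FPKM in MI and at 0.281, 0.392 and 0.197 FPKM in sedentary libraries (log2 fold change 0.95, SE 0.17, limma adjusted p = 0.00115). Rrm1 stood at 1.76 and 2.85 FPKM in MI and at 0.887, 0.921 and 0.736 FPKM in sedentary libraries (log2 fold change 0.82, limma adjusted p = 0.00676). Tyms (thymidylate synthase) differed by 0.61 (limma adjusted p = 0.0132) and Tk1 (thymidine kinase) by 0.73 (limma adjusted p = 0.0275). Pcna had 19.5 and 18.6 FPKM in MI and 29.0, 17.4 and 42.0 FPKM in sedentary libraries, overlapping ranges with a log2 fold change of -0.52 (limma adjusted p = 0.353). In the second fit without a filter 23 of 25 mitosis genes and 5 of 16 replication genes were higher, where 6.14% of all genes were. Cks2 and Mki67 were the 2 mitosis genes that did not pass, and none was lower, where 1.64% of all genes were. Prc1, which bundles the central spindle, stood at 0.697 and 1.63 FPKM in MI and at 0.117, 0.171 and 0.0591 FPKM in sedentary libraries (log2 fold change 2.48 in that fit, limma adjusted p = 0.000515).

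Against the 2 sham libraries, 6 mitosis genes (Ccna2, Ccnb1, Cdk1, Cdc20, Ube2c and Plk1) and 2 replication genes (Rrm2 and Tyms) were higher in MI, where 6.32% of all genes tested were higher, and no member was lower, where 3.56% were. The largest log2 fold changes were those of Ccnb1 (1.01, SE 0.234, limma adjusted p = 0.00981) and Ube2c (1.0, SE 0.284, limma adjusted p = 0.0318), and the smallest those of Tyms (0.57, limma adjusted p = 0.0374) and Cdc20 (0.62, limma adjusted p = 0.0468). The second sham library stood apart from the first, with Ccnb1 at 0.401 against 0.0453 FPKM and Cdk1 at 0.385 against 0.0795 FPKM. The MI calls rest on few libraries: without the second MI library none of the 14 higher calls against sedentary fibroblasts and none of the 8 against sham remained past the threshold, and without the first sham library none of the 8 did. Without the first sedentary library 8 genes were higher, without the second 13 and without the third 10. Without a filter 8 of 25 mitosis and 3 of 16 replication genes were higher against sham, where 4.26% of all genes were, and none was lower, where 1.77% were. In a fit of only the compared groups 9 genes were higher against sedentary fibroblasts and 0 against sham.

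After 3 days of TAC the 11 tested mitosis genes were higher than in sham fibroblasts, together with 3 of 4 nucleotide supply genes and part of the helicase. Of the 27 genes, 11 mitosis and 6 replication genes were higher, where 31.3% of all genes tested were higher, and 2 genes, Mcm4 and Ccnd2, were lower, where 25.8% were lower. Ube2c stood at 3.88, 4.80 and 7.69 FPKM in TAC and at 0.437 and 0.917 FPKM in sham libraries. Birc5 stood at 3.21, 3.83 and 6.83 FPKM in TAC and at 0.468 and 0.887 FPKM in sham libraries. In both genes every TAC library lay above every sham library, and the log2 fold change of Birc5 was 1.70 (SE 0.264, limma adjusted p = 4.98e-05). Tk1 stood at 1.85, 2.08 and 4.42 FPKM in TAC and at 0.106 and 0.346 FPKM in sham libraries (log2 fold change 1.57, SE 0.206, limma adjusted p = 1.15e-05). Gins2, a subunit of the GINS complex that activates the helicase, stood at 2.0, 2.17 and 3.98 FPKM in TAC and at 0.310 and 0.333 FPKM in sham libraries (log2 fold change 1.45, SE 0.196, limma adjusted p = 1.48e-05). The helicase subunits moved in both directions, since Mcm5 and Mcm7 were higher and Mcm4 averaged 0.991 ± 0.245 FPKM in TAC and 1.58 ± 0.161 FPKM in sham (SD, n = 3 and 2; log2 fold change -0.38, SE 0.141, limma adjusted p = 0.0296). On the log2(FPKM + 1) scale the smallest log2 fold change among the higher mitosis genes was that of Plk1, at 0.66. Plk1 averaged 0.811 FPKM in TAC and 0.134 FPKM in sham, levels at which that scale understates changes. Without a filter 15 of 25 mitosis genes were higher and 1, Mki67, was lower, and 8 of 16 replication genes were higher, where 15.7% of all genes were higher and 17.7% lower. Rrm1 did not pass (0.22, limma adjusted p = 0.31), and without the first sham library Rrm2 (limma adjusted p = 0.0546) and Ccnb2 (0.103) lost their calls. Leaving out any 1 of 4 single libraries (the first or second TAC or either sham library) ended the Mcm4 call, with limma adjusted p up to 0.155, and removing a trend with transcript length and GC content turned its sign (0.08).

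After 10 days of TAC the same arms stood above sedentary fibroblasts. Of the 27 genes, 11 mitosis genes, 8 replication genes (Mcm5, Mcm7, Gins2, Cdt1, Fen1, Rrm2, Tyms and Tk1) and Ccnd1 were higher, where 38.8% of all genes tested were higher, and Ccnd2 was lower, where 27% were. Stmn1 stood at 12.5, 19.9 and 17.5 FPKM in TAC and at 2.75, 3.64 and 3.47 FPKM in sedentary libraries (log2 fold change 2.02, SE 0.249, limma adjusted p = 4.82e-06). Cenpa stood at 4.04, 3.95 and 4.22 FPKM in TAC and at 0.467, 0.694 and 0.584 FPKM in sedentary libraries (log2 fold change 1.68, SE 0.23, limma adjusted p = 1.16e-05). The groups of both genes lay far apart with little spread. Both transcripts are short (1060 and 1466 bases), and over all genes short transcripts tended to higher fold changes here (Spearman rho -0.537). Fen1, the flap endonuclease of lagging strand synthesis, showed the smallest called difference among replication genes (0.32, SE 0.126, limma adjusted p = 0.0326), and Cdt1, which loads the helicase onto origins, differed by 0.60 (limma adjusted p = 0.0291). Without a filter 15 mitosis genes were higher and 1, Mki67, was lower, and 9 replication genes were higher, where 21.8% of all genes were higher and 18.8% lower. In the fit with the filter the calls of Fen1, Cdt1 and Ccnd1 were lost without the first TAC or the first sedentary library. Their limma adjusted p reached 0.129, 0.096 and 0.0919. Some of these calls were also lost without the second TAC, the third TAC or the third sedentary library. Cardiomyocyte markers were called higher in this group for 6 of 9 tested genes. Endothelial markers were called higher for 4 of 10, near the 38.8% of all genes tested. Summed endothelial markers reached 391 to 960 FPKM here against 82.0 to 347 in the other fibroblast libraries. Fabp4 alone stood at 281, 730 and 459 FPKM here. Tek was lower here (2.77, 3.42 and 1.33 FPKM) than in sedentary fibroblasts (5.38, 5.01 and 3.63 FPKM). The part of these markers in the result was not tested.

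After swimming few mitosis genes passed against sedentary fibroblasts, and a few genes of replication were higher. After 4 days 2 mitosis genes (Cks2 and Cenpa) and 4 replication genes (Mcm5, Mcm7, Tyms and Gins2) were higher than in sedentary fibroblasts, where 38.2% of all genes tested were higher, and Ccnd2 was lower, where 26.3% were. After 10 days Cks2 and Gins2 were higher, where 30% of all genes were, and Ccnd2 was lower, where 13.6% were. These shares of members lie below those of all genes in the higher direction. The split depends on the scaling: with TPM 2 members were higher and 7 lower at 4 days, and 0 higher and 3 lower at 10 days. Cks2 stood at 3.42, 4.17 and 3.55 FPKM after 10 days of swimming, at 5.41, 8.00 and 4.83 FPKM after 4 days, and at 1.66, 2.41 and 0.955 FPKM in sedentary libraries. Its log2 fold change was 1.42 (SE 0.245, limma adjusted p = 9.67e-05) at 4 days and 0.85 (SE 0.245, limma adjusted p = 0.0102) at 10 days. Gins2 stood at 0.698, 0.829 and 0.627 FPKM after 10 days, at 0.943, 1.36 and 1.26 FPKM after 4 days, and at 0.153, 0.315 and 0.175 FPKM in sedentary libraries (log2 fold change 0.85 and limma adjusted p = 0.000477 at 4 days; 0.50 and 0.0285 at 10 days). In both genes every swim library lay above every sedentary library. Without a filter 2 mitosis genes were higher at 4 days and 2 lower (Top2a and Mki67), where 20% of all genes were higher and 20% lower, and 1 was higher and 1 (Mki67) lower at 10 days, where 14.3% and 9.15% were. Of 16 replication genes 8 were higher at 4 days and 2 at 10 days. Cyclin B1 after 4 days, at 0.00757, 0.107 and 0.0239 FPKM, overlapped the sedentary libraries. The median log2 fold change at 4 days was 0.06 for the mitosis genes, 0.17 for the replication genes and 0.13 for all genes, and at 10 days -0.09, 0.14 and 0.14. Mcm5 and Tyms lost their calls without any 1 of the libraries compared other than the third swim one (limma adjusted p up to 0.19 and 0.14). Gins2 at 10 days lost its call without the first or the second swim library or the first or the third sedentary one (limma adjusted p up to 0.0935), and Cks2 without the third sedentary one (0.0532).

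Swimming and TAC were then compared directly, without the shared controls. After 4 days of swimming 10 of 11 tested mitosis genes were lower than after 3 days of TAC, as were Rrm2, Tyms, Tk1 and Gins2, where 3.66% of all genes tested were lower; no member was higher, where 5.2% of all genes were. After 10 days of swimming all 11 mitosis genes tested and again Rrm2, Tyms, Tk1 and Gins2 were lower than after 10 days of TAC, where 13.2% of all genes were lower, and Pcna was higher, where 10.9% were. Ube2c stood at 0.718, 0.728 and 0.675 FPKM after 4 days of swimming and at 3.88, 4.80 and 7.69 FPKM after 3 days of TAC (log2 fold change -1.88, SE 0.232, limma adjusted p = 0.000122). It stood at 0.113, 0.477 and 0.231 FPKM after 10 days of swimming and at 2.35, 4.02 and 2.76 FPKM after 10 days of TAC (log2 fold change -1.66, SE 0.232, limma adjusted p = 0.000119). Birc5 differed by -1.82 at the early times (SE 0.236, limma adjusted p = 0.000176), and Stmn1 by -1.81 at 10 days (SE 0.249, limma adjusted p = 0.000105). On the log2(FPKM + 1) scale the smallest called difference at the early times was that of Tyms (-0.65, SE 0.136, limma adjusted p = 0.00623). At 10 days it was that of Rrm2 (-0.56, SE 0.152, limma adjusted p = 0.0142). Cks2 was the mitosis gene that did not pass at the early times (-0.50, limma adjusted p = 0.248).

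Pcna went the other way at 10 days, at 51.4, 27.7 and 43.3 FPKM after swimming and 21.9, 25.9 and 18.6 FPKM after TAC (log2 fold change 0.82, SE 0.289, limma adjusted p = 0.0482). Each swim library lay above each TAC library. That call was lost without any 1 library other than the second swim one (limma adjusted p up to 0.207). The early times differ by 1 day between swimming and TAC, so time and treatment are not fully separated there. The count of lower members was 13 to 14 at the early times and 13 to 15 at 10 days when single libraries were left out; Gins2 at the early times was lost without the third TAC or the first swim library (limma adjusted p = 0.0637 and 0.0583). At 10 days Cks2 lost its call without the second TAC, the third TAC, the first swim or the third swim library (limma adjusted p up to 0.103), Ccnb1 without the third TAC library (0.0563) and Rrm2 without the first swim library (0.0594). Without a filter 17 of 25 mitosis genes were lower at the early times and 16 of 25 at 10 days, where 2.17% and 7.07% of all genes were lower; none was higher, where 2.2% and 4.78% were. With the trend of length and GC content also removed, 16 and 22 mitosis genes were lower, where 2.43% and 14.7% of all genes were. The groups also differed in markers of cell types. Summed fibroblast markers reached 2579 to 3736 FPKM in 4-day swim and 1108 to 2018 in 3-day TAC, and 3170 to 3634 in 10-day swim and 971 to 1742 in 10-day TAC. The markers of that list did not move together. Gsn stood at 2143, 1456 and 2128 FPKM in 4-day swim and at 737, 967 and 400 in 3-day TAC. Col1a1 stood at 47.7, 23.6 and 27.0 FPKM in 4-day swim and at 122, 132 and 86.8 in 3-day TAC. At both times Col1a1, Col1a2 and Col3a1 were higher in every TAC library than in every swim library. Summed endothelial markers reached 137 to 347 FPKM in 4-day swim and 161 to 225 in 3-day TAC, and 158 to 299.5 in 10-day swim and 391 to 960 in 10-day TAC. Fabp4 alone stood at 118, 238 and 132 FPKM in 10-day swim and at 281, 730 and 459 in 10-day TAC. Vwf stood at 3.98, 6.36 and 4.64 FPKM in 10-day swim and at 2.03, 4.74 and 2.10 in 10-day TAC. Of 13 macrophage markers 0 were called at the early times, and 0 were higher and 2 lower in 10-day swim. The part of these in the result was not tested.

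**Figure D2:**
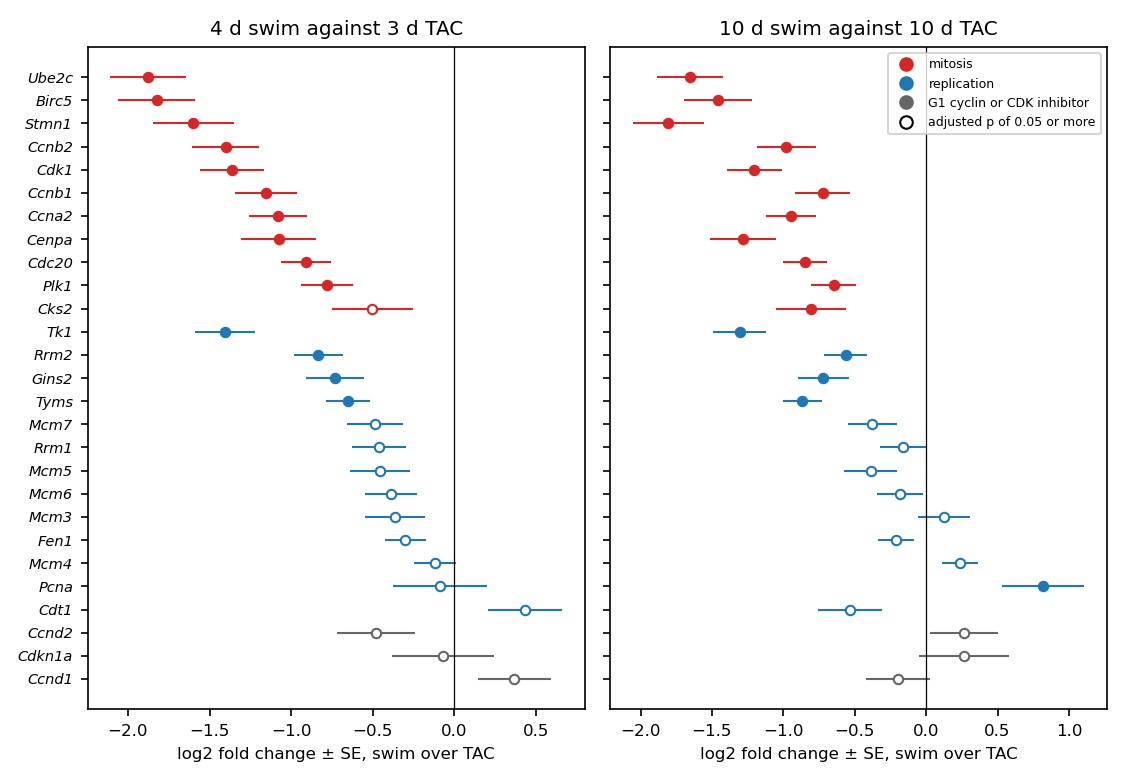
Log2 fold change with its SE (limma, log2(FPKM + 1)) of swimming against TAC for the 27 genes tested, at 4 against 3 days and at 10 days; open points did not pass an adjusted p of 0.05. Mitosis genes lie left of 0 in both panels, from Ube2c at -1.88 to Cks2 at -0.50 at the early times, while Pcna lies right of 0 at 10 days (0.82).

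The 2 disease models were also set side by side. In MI fibroblasts Ube2c, Birc5, Cenpa, Stmn1, Cks2, Mcm7, Tk1, Gins2 and Ccnd1 were lower than after 3 days of TAC, where 27.6% of all genes tested were lower, and Ccnd2 was higher, where 24% were. Gins2 stood at 0.546 and 1.17 FPKM in MI and at 2.0, 2.17 and 3.98 FPKM after 3 days of TAC, and Cks2 at 3.09 and 4.28 FPKM in MI and at 7.05, 7.90 and 12.3 FPKM after TAC. The log2 fold change of Cks2 was -1.08 (SE 0.274, limma adjusted p = 0.00343), that of Stmn1 -1.06 (SE 0.279, limma adjusted p = 0.00453), and the smallest called ones were those of Mcm7 (-0.58, limma adjusted p = 0.0176) and Cenpa (-0.67, limma adjusted p = 0.0383). Ccna2, Ccnb1 and Cdk1, which were higher in both models than in their controls, did not pass here. The number of lower genes was 3 without the first MI library and 14 without the second, and the Ccnd2 call was lost without the second (limma adjusted p = 0.0799). Without a filter 8 mitosis genes were higher and 3 lower, and 3 replication genes were lower, where 18% of all genes were higher and 13% lower. With the trend of length and GC content also removed 1 member, Top2a, was higher, where 23.7% of all genes were, and 7 were lower, where 20.6% were. Days differ between the models (5 and 3), and time and model cannot be told apart.

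The members too low for the filter are described from the fit without one. The mitotic kinases Aurka and Aurkb were higher in MI and in both TAC groups. Aurkb, the kinase of the passenger complex, stood at 0.303 and 0.649 FPKM in MI, 0.506, 0.522 and 1.26 in 3-day TAC, 0.0298 and 0.201 in sham, and 0.0466, 0.0591 and 0.0466 in sedentary fibroblasts. Its log2 fold change was 1.87 in MI (limma adjusted p = 0.00903) and 2.05 in 10-day TAC (limma adjusted p = 0.000338) against sedentary fibroblasts, and 2.02 in 3-day TAC against sham (limma adjusted p = 0.00122). The motor gene Kif11, whose product pushes spindle poles apart, differed by 1.72 between MI and 3-day TAC (limma adjusted p = 0.000247), and by 0.69 without passing (limma adjusted p = 0.0721) once the trend of length and GC content was removed. It stood at 0.306 and 0.561 FPKM in MI, 0.0455, 0.0521 and 0.0771 in 3-day TAC, 0.0366 and 0.186 in sham, and 0.0627, 0.0930 and 0.0380 in sedentary fibroblasts. Its log2 fold change was 1.67 in MI against sedentary fibroblasts (limma adjusted p = 0.00122) and -0.33 in 3-day TAC against sham (limma adjusted p = 0.417). The spindle genes Kif20a, Kif23, Nusap1 and Tpx2 had log2 fold changes of 1.54, 1.17, 1.18 and 1.49 in MI against sedentary fibroblasts, all past the threshold. In 10-day TAC against sedentary fibroblasts they were 0.66, 0.39, 0.28 and 0.55, none past it, and with the trend of length and GC content removed 1.14, 0.95, 1.15 and 1.21, all past it. In 3-day TAC against sham they were 0.29, -0.69, -0.40 and 0.16, none past it with or without the trend. Of all genes in these fits 6.14% were higher in MI, 21.8% in 10-day TAC, and 34.3% there with the trend removed. In 3-day TAC 15.7% of all genes were higher and 17.7% lower, and 25.6% and 24.5% with the trend removed. In replication, the helicase subunit gene Mcm2 was higher in 3-day TAC (1.40, limma adjusted p = 0.00271) and in 10-day TAC (1.47, limma adjusted p = 0.000647) and did not pass in MI (0.96, limma adjusted p = 0.0786). Cdc6, which helps load that helicase, passed in none of these, at 0.0678 and 0.107 FPKM in MI and 0.0794, 0.107 and 0.0427 FPKM in sedentary fibroblasts. Ccne1 (cyclin E1, the cyclin of S phase entry) was higher in 10-day TAC against sedentary fibroblasts (1.17, limma adjusted p = 0.0101) and did not pass in MI (0.86) or in 3-day TAC against sham (0.92).

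Long and short mitosis genes behaved differently in the TAC and swim groups. Over all genes with a known length, fold change and transcript length were related, with a Spearman rho over 9342 genes of -0.590 for 3-day TAC against sham, -0.537 for 10-day TAC and -0.636 for 4-day swim against sedentary fibroblasts, but -0.0264 for MI against sedentary fibroblasts. Genes are not independent replicates, and these are descriptions. In the fit without a filter the 7 mitosis genes with transcripts of up to 2048 bases had a median log2 fold change of 1.68 and the 18 longer ones 0.22 in 3-day TAC against sham. In 10-day TAC against sedentary fibroblasts the medians were 2.05 and 0.60, and in MI against sedentary fibroblasts they were 1.68 and 1.61. Pearson's r between log2 length and fold change over the 25 mitosis genes was -0.631, -0.712 and -0.248 in these 3 comparisons. Mki67, the gene of the proliferation marker Ki-67 with a transcript of 10061 bases, stood at 0.487 and 0.862 FPKM in MI, 0.0486, 0.0393 and 0.0322 in 10-day swim, 0.0464, 0.024 and 0.0503 in 4-day swim, 0.0549, 0.0275 and 0.143 in 10-day TAC, 0.0359, 0.0789 and 0.0891 in 3-day TAC, 0.284 and 1.39 in sham, and 0.592, 0.751 and 0.101 in sedentary fibroblasts. Its log2 fold change was -2.19 in 3-day TAC against sham (SE 0.55, limma adjusted p = 0.00586), where 17.7% of all genes in that fit were lower, and -0.64 (limma adjusted p = 0.32) with the trend of length and GC content removed. Thus the marker gene was lower in the group in which most mitosis genes of the same fit were higher, and the difference did not pass once the trend was removed. Other long mitosis genes, among them Top2a, Kif23, Nusap1 and Kif11, also had negative log2 fold changes in that comparison, without passing.

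Top2a (topoisomerase II alpha, 5221 bases), which untangles chromosomes before mitosis, stood at 0.872 and 1.84 FPKM in MI, 0.0764, 0.0534 and 0.0646 in 10-day swim, 0.0691, 0.0334 and 0.0336 in 4-day swim, 0.173, 0.151 and 0.0682 in 10-day TAC, 0.133, 0.178 and 0.228 in 3-day TAC, 0.232 and 0.740 in sham, and 0.244, 0.298 and 0.112 in sedentary fibroblasts. Both MI libraries lay above all other fibroblast libraries, and the log2 fold change against sedentary fibroblasts was 2.16 (SE 0.377, limma adjusted p = 0.0019, no filter). The 3-day TAC libraries lay below both sham libraries, with a log2 fold change of -0.93 that did not pass (limma adjusted p = 0.07). MI against 3-day TAC differed by 2.31 in Top2a (SE 0.377, limma adjusted p = 0.000284), and by 1.25 (limma adjusted p = 0.013) with the trend removed. For Mki67 the values were 2.18 (limma adjusted p = 0.00663) and 0.64 (limma adjusted p = 0.34). Between swimming and TAC the log2 fold changes of Mki67 were -0.25 at the early times and -0.27 at 10 days (limma adjusted p = 0.921 and 0.81). Apart from the third 10-day TAC library (0.143 FPKM) these libraries lay below the pseudocount of 0.1, which shrinks such changes. Its means were 0.0402 FPKM in 4-day swim and 0.068 in 3-day TAC, and 0.0401 in 10-day swim and 0.075 in 10-day TAC.

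**Figure D3:**
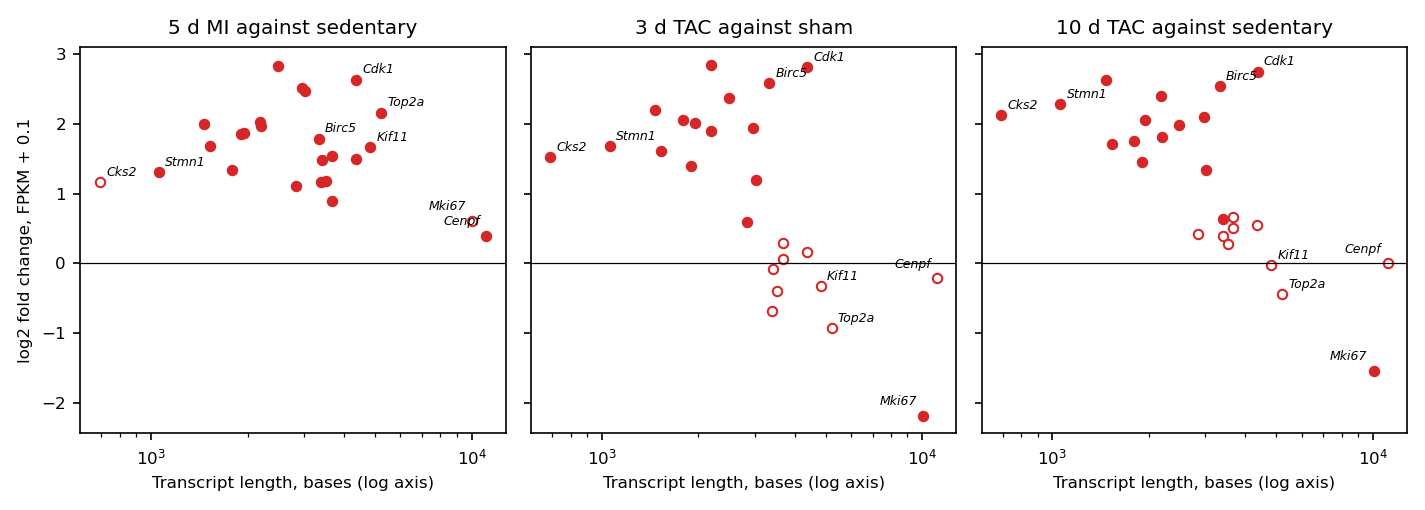
Log2 fold change without a filter (pseudocount 0.1) against transcript length in bases (log axis) for the 25 mitosis genes in MI against sedentary fibroblasts, 3-day TAC against sham and 10-day TAC against sedentary fibroblasts; filled points passed an adjusted p of 0.05. The points slope down in the TAC panels (r = -0.631 and -0.712) and less in the MI panel (r = -0.248), and Mki67, at 10061 bases, lies at -2.19 in 3-day TAC against sham.

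The balance of S phase and mitosis was described by the mean log2(FPKM + 1) of all 16 replication and all 25 mitosis genes in each library. The mitosis mean was 1.02 ± 0.349 in MI, 0.330 ± 0.0360 in 10-day swim, 0.426 ± 0.0623 in 4-day swim, 0.934 ± 0.0982 in 10-day TAC, 1.09 ± 0.186 in 3-day TAC, 0.539 ± 0.256 in sham, 0.397 ± 0.0394 in cardiomyocytes and 0.358 ± 0.0824 in sedentary fibroblasts (SD, n = 2 for MI and sham, otherwise 3). The MI and both TAC groups formed the upper part of this order and lay within their SDs of each other; their lowest library, the first MI one at 0.773, lay just above the second sham library at 0.720. The replication mean was 1.26 ± 0.203 in MI, 1.08 ± 0.0256 in 10-day swim, 1.16 ± 0.0900 in 4-day swim, 1.37 ± 0.0960 in 10-day TAC, 1.55 ± 0.249 in 3-day TAC, 1.08 ± 0.134 in sham, 0.676 ± 0.0314 in cardiomyocytes and 0.913 ± 0.0361 in sedentary fibroblasts. All 6 swim libraries (1.06 to 1.26) lay above all 3 sedentary ones (0.887 to 0.954) in replication, while in mitosis they overlapped (0.303 to 0.497 in swim and 0.276 to 0.441 in sedentary libraries). With TPM in place of FPKM the order in replication turned, with swim libraries at 3.70 to 3.89 and sedentary ones at 3.85 to 4.02 on the log2 scale of that unit. The difference, replication minus mitosis, was 0.245 ± 0.146 in MI, 0.753 ± 0.0449 in 10-day swim, 0.732 ± 0.116 in 4-day swim, 0.434 ± 0.0757 in 10-day TAC, 0.458 ± 0.0985 in 3-day TAC, 0.537 ± 0.122 in sham, 0.279 ± 0.0118 in cardiomyocytes and 0.554 ± 0.113 in sedentary fibroblasts. Both MI libraries (0.348 and 0.142) lay below all swim, sham and sedentary fibroblast libraries (0.451 to 0.860). Among only the 24 genes that pass the filter the difference was negative in MI (-0.119), 10-day TAC (-0.236), 3-day TAC (-0.345) and cardiomyocytes (-0.0554), and positive in the other groups. Ccna2, Ccnb1, Cdk1, Cdc20 and Plk1 pass the filter only through MI and TAC libraries. The filter itself thus favours a lower difference in those groups, and these signs describe and do not support. The MI value rests on its second library (-0.296), since the first was at 0.0575.

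**Figure D4:**
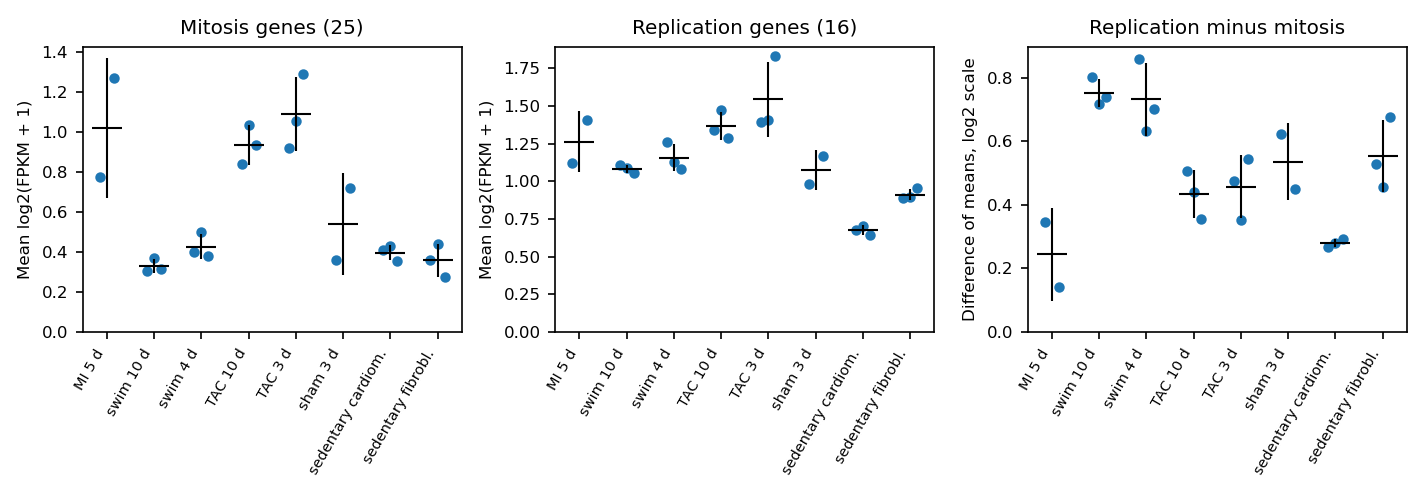
Mean log2(FPKM + 1) of the 25 mitosis genes, of the 16 replication genes, and their difference, in each library (points) by group, with the group mean and SD in black. Mitosis means of the MI, 10-day TAC and 3-day TAC libraries lie between 0.773 and 1.29, those of the swim libraries between 0.303 and 0.497.

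The D cyclins had patterns of their own. Ccnd1 (cyclin D1, which starts the cycle with CDK4 and CDK6) stood at 2.10 and 1.95 FPKM in MI, 6.44, 8.75 and 5.83 in 10-day swim, 9.05, 6.86 and 3.96 in 4-day swim, 9.72, 8.68 and 6.21 in 10-day TAC, 4.17, 4.37 and 5.57 in 3-day TAC, 2.54 and 3.06 in sham, and 4.87, 5.12 and 4.79 in sedentary fibroblasts. Both MI libraries were below every other fibroblast library. The log2 fold change was -0.97 (SE 0.249, limma adjusted p = 0.0169) in MI against sedentary fibroblasts and 0.62 (SE 0.223, limma adjusted p = 0.0223) in 10-day TAC against sedentary fibroblasts. The MI call was lost without either MI library (limma adjusted p = 0.0705 and 0.171). Ccnd2 (cyclin D2) stood at 4.23 and 5.91 FPKM in MI, 2.60, 1.55 and 2.27 in 10-day swim, 1.68, 0.722 and 1.26 in 4-day swim, 1.82, 1.63 and 1.32 in 10-day TAC, 2.01, 2.67 and 1.57 in 3-day TAC, 5.36 and 2.74 in sham, and 5.55, 3.01 and 5.39 in sedentary fibroblasts. All swim and TAC libraries lay below all MI, sham and sedentary ones. Against sedentary fibroblasts its log2 fold change was -0.83 in 10-day swim (limma adjusted p = 0.00994), -1.34 in 4-day swim (SE 0.238, limma adjusted p = 0.000125) and -1.10 in 10-day TAC (SE 0.238, limma adjusted p = 0.000727). In 3-day TAC against sham it was -0.68 (limma adjusted p = 0.0378). With a transcript of 6330 bases it was among the long transcripts. With the trend of length and GC content removed the 3-day TAC value turned to 0.03, and the 10-day TAC and 10-day swim values became -0.45 and -0.32 and did not pass. The 3-day TAC call was also lost without the first TAC, the third TAC or the first sham library (limma adjusted p up to 0.455), and the 10-day swim call without the second swim or the first sedentary library (up to 0.0573).

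Of the CDK inhibitors, Cdkn1a stood at 46.6 and 39.7 FPKM in MI, 81.5, 54.5 and 70.6 in 10-day swim, 63.8, 35.6 and 77.4 in 4-day swim, 60.9, 56.1 and 52.2 in 10-day TAC, 64.7, 61.8 and 51.3 in 3-day TAC, 63.0 and 68.7 in sham, and 61.3, 34.5 and 102 in sedentary fibroblasts. It passed in none of the fibroblast comparisons, and its sedentary libraries spanned the levels of all other groups. Cdkn2a, whose locus encodes the CDK4 inhibitor p16 and the p53 regulator ARF, stood at 0.268 and 0.476 FPKM in MI, 0.187, 0.280 and 0.270 in 10-day swim, 0.514, 0.458 and 0.539 in 4-day swim, 0.312, 0.682 and 0.586 in 10-day TAC, 0.328, 0.692 and 0.889 in 3-day TAC, 0.126 and 0.180 in sham, and 0.115, 0.120 and 0.220 in sedentary fibroblasts. Every TAC library lay above every sham and sedentary library. Without a filter the log2 fold change was 1.46 in 3-day TAC against sham (SE 0.341, limma adjusted p = 0.00352) and 1.29 in 10-day TAC and in 4-day swim against sedentary fibroblasts (limma adjusted p = 0.00309 for both). Its transcript has 895 bases, and with the trend of length and GC content removed these values were -0.08, -0.31 and -0.26.

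**Figure D5:**
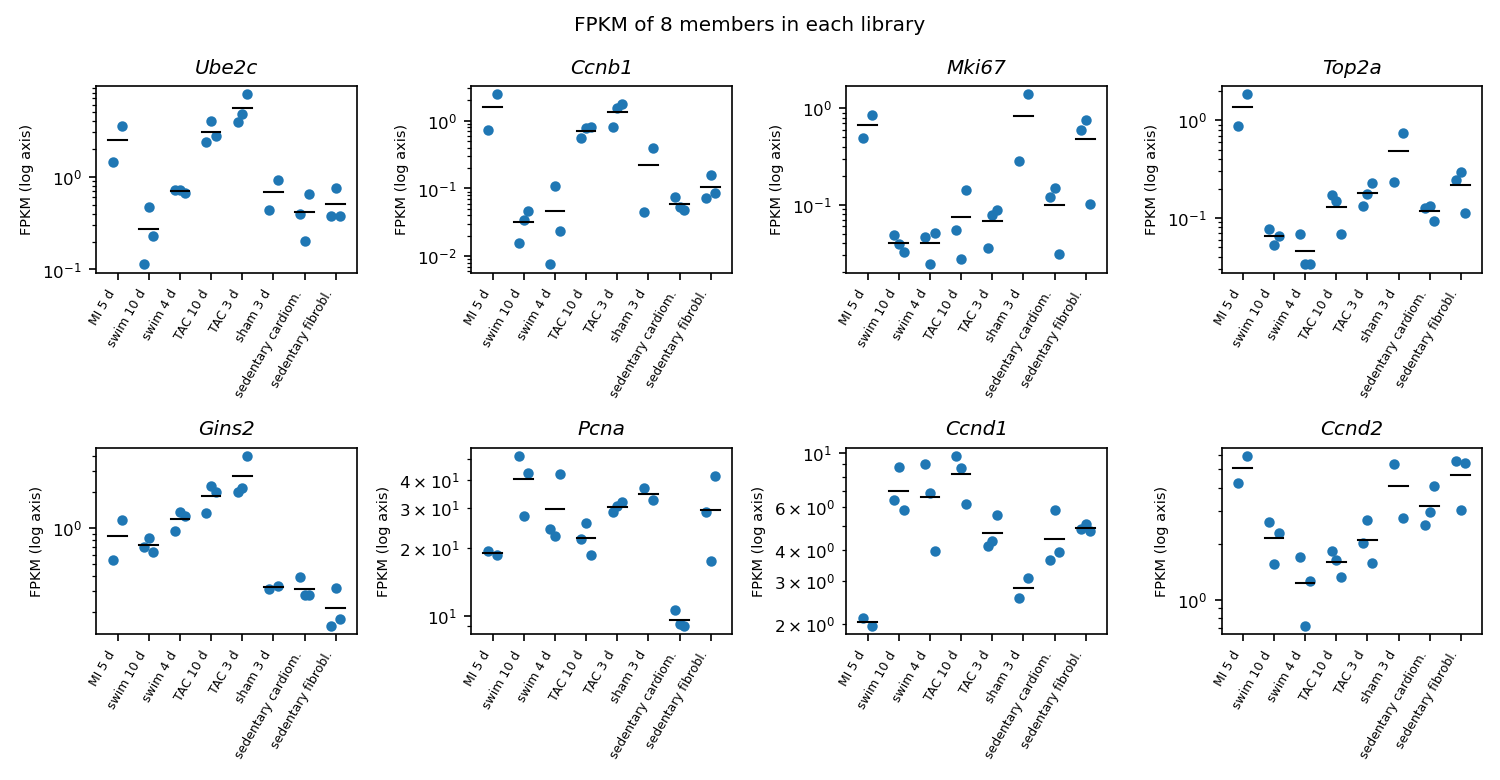
FPKM (log axis) of Ube2c, Ccnb1, Mki67, Top2a, Gins2, Pcna, Ccnd1 and Ccnd2 in every library (points) by group, with the group mean as a line. Ube2c and Ccnb1 are high in the MI and TAC groups, Mki67 and Top2a reach their highest group means in MI for Top2a (0.872 and 1.84 FPKM) and in sham for Mki67 (0.284 and 1.39 FPKM), and Ccnd2 is low in the swim and TAC groups.

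Between times of 1 treatment and between the control groups, no member passed. In 10-day against 3-day TAC 4.42% of all genes tested were higher and 2.18% lower, and 2 members were higher and 4 lower at an unadjusted p under 0.05 with limma. Ccnd1 came closest to the threshold, with a log2 fold change of 0.68 (SE 0.223, limma adjusted p = 0.0814). In 10-day against 4-day swim 0.0106% of all genes were higher and 0.308% lower, and 1 member each was higher and lower at an unadjusted p under 0.05. In sham against sedentary fibroblasts 0.0212% of genes were higher and 0% lower, and 2 members were higher and 1 lower at an unadjusted p under 0.05, Ccnd1 having the smallest adjusted p (log2 fold change -0.64, limma adjusted p = 0.577). Without a filter no member passed in these 3 comparisons either: 2.68% of all genes were higher and 1.01% lower in 10-day against 3-day TAC, 0% and 0.0529% in 10-day against 4-day swim, and 0.0192% in each direction in sham against sedentary fibroblasts. These p-values do not show that the groups are alike. Medians of the tested mitosis genes were -0.26 in 10-day against 3-day TAC, -0.15 in 10-day against 4-day swim and 0.19 in sham against sedentary fibroblasts, against -0.02, 0.01 and 0.09 for all genes. The change over time did not differ between TAC and swimming for any member at an adjusted p under 0.05 (limma), although 6.16% of all genes did; 3 members, Pcna, Cdt1 and Ccnd2, had an unadjusted p under 0.05.

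Other genes of the same pathways were counted from 4 lists. Of 28 other replication genes 7 were tested: in MI against sedentary fibroblasts 1 was higher, in 10-day swim 6, in 4-day swim 6 and in 10-day TAC 4, and in 3-day TAC against sham 5, with none lower. Over all genes tested the shares higher were 8.93%, 30%, 38.2%, 38.8% and 31.3% in the same order, and nothing is read from counts of so few genes. Gins4, another GINS subunit, averaged 2.75 FPKM after 4 days of swimming, 2.55 after 10 days of TAC and 0.52 in sedentary fibroblasts (log2 fold changes 1.27 and 1.22). Dut, the dUTPase that keeps uracil out of DNA, averaged 1.67 FPKM in 3-day TAC and 0.301 in sham (1.02, limma adjusted p = 5.25e-05). Of 38 other mitosis genes 5 were tested. The checkpoint gene Mad2l1 averaged 1.67 FPKM in MI and 0.37 in sedentary fibroblasts (log2 fold change 0.93, limma adjusted p = 0.000429). Racgap1, needed for cytokinesis, averaged 1.12 FPKM in MI and 0.214 in sedentary fibroblasts (0.79, limma adjusted p = 0.00563). In 3-day TAC against sham 3 of the 5 were higher and 2 lower, where 31.3% of all genes tested were higher and 25.8% lower. The lower ones were the condensin gene Smc4 (-0.83) and Fbxo5, an inhibitor of the anaphase-promoting complex (-0.57). Without a filter 29 of the 38 were higher in MI against sedentary fibroblasts, 11 higher and 3 lower in 3-day TAC against sham, 17 higher and 1 lower in 10-day TAC against sedentary fibroblasts, and 0 higher and 16 lower in 4-day swim against 3-day TAC. Over all genes of that fit 6.14% were higher in MI, 15.7% were higher and 17.7% lower in 3-day TAC, 21.8% were higher and 18.8% lower in 10-day TAC, and 2.17% were lower in 4-day swim against 3-day TAC.

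Of 20 regulators around E2F, RB and DREAM 11 were tested. Against sedentary fibroblasts 1 was higher in MI, 3 were higher and 1 lower in 10-day swim, 3 higher and 4 lower in 4-day swim, and 4 higher and 3 lower in 10-day TAC. In 3-day TAC against sham 5 were higher and 4 lower. Over all genes tested the shares higher were 8.93%, 30%, 38.2%, 38.8% and 31.3% in MI, 10-day swim, 4-day swim, 10-day TAC and 3-day TAC. The shares lower were 2.34%, 13.6%, 26.3%, 27% and 25.8% in the same order, and nothing is read from counts of so few genes. Cdk4, the partner of the D cyclins, averaged 12.3 FPKM in MI, 16.6 in 10-day swim, 23.4 in 4-day swim, 25.9 in 10-day TAC, and 5.9 in sedentary fibroblasts, and 28.7 in 3-day TAC against 5.68 in sham. Its log2 fold change was 0.93 in MI (limma adjusted p = 0.0133), 1.34 in 10-day swim, 1.80 in 4-day swim and 1.96 in 10-day TAC against sedentary fibroblasts, and 2.14 in 3-day TAC against sham (limma adjusted p = 3.03e-06). E2f1, an activator of replication genes, averaged 1.76 FPKM in 3-day TAC and 0.462 in sham (log2 fold change 0.90) and was lower after 10 days of swimming than after 10 days of TAC (-0.63). Of 15 other CDK inhibitors and p53 targets 14 were tested. Phlda3, a p53 target that restrains AKT, averaged 12.5 FPKM in 4-day swim, 16.6 in 10-day TAC and 2.17 in sedentary fibroblasts (log2 fold changes 2.02 and 2.48). Cdkn2c, an inhibitor of CDK4 and CDK6, averaged 8.74 in 4-day swim and 1.57 in sedentary fibroblasts (1.82). In MI against sedentary fibroblasts 3 of the 14 were higher and 2 lower, among them Gadd45a (-1.27) and Plk2 (0.99), where 8.93% of all genes tested were higher and 2.34% lower.

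Cardiomyocytes of sedentary mice were compared with fibroblasts of sedentary mice in a fit of all 22 libraries, in which 28 members were among 10371 genes tested. Tk1, Rfc4 and Cenpa were higher in cardiomyocytes, where 38.7% of all genes were, and Mcm3, Mcm4, Mcm6, Pcna, Cdt1, Cks2 and Cdkn1a were lower, where 38.6% were. Cenpa stood at 8.15, 6.45 and 5.13 FPKM in cardiomyocytes and at 0.467, 0.694 and 0.584 FPKM in fibroblasts (log2 fold change 2.24, SE 0.231, limma adjusted p = 3.04e-08). Rfc4, a subunit of the clamp loader, averaged 1.06 ± 0.0444 FPKM in cardiomyocytes and 0.162 ± 0.0674 FPKM in fibroblasts (SD, n = 3 each; log2 fold change 0.83, limma adjusted p = 4.19e-07). Cdkn1a averaged 5.4 ± 2.51 FPKM in cardiomyocytes and 66 ± 34.1 FPKM in fibroblasts (log2 fold change -3.35, SE 0.344, limma adjusted p = 3.03e-08). Cdt1 averaged 0.177 ± 0.0578 FPKM in cardiomyocytes and 2.21 ± 0.19 FPKM in fibroblasts (log2 fold change -1.45, SE 0.213, limma adjusted p = 4.04e-06). Pcna averaged 9.59 ± 0.897 FPKM in cardiomyocytes and 29.5 ± 12.3 FPKM in fibroblasts. Without a filter 4 members were higher and 11 lower, where 27% of all genes were higher and 27.2% lower. The Tk1 call (0.59, limma adjusted p = 0.00858) was lost without the first cardiomyocyte library (0.0558) and turned to -0.06 with the trend of length and GC content removed, and that of Cks2 was lost without the second fibroblast library (0.102).

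The authors' deposited table of pairwise tests gives counts at its own significance calls, for groups matched by the names in that table. In MI against sedentary fibroblasts the authors' deposited table has 21 of 24 tested mitosis genes and 7 of 16 replication genes higher, where it calls 9.7% of all its tested genes higher. In MI against sham it has 12 of 24 and 4 of 16 higher, in the authors' deposited table, where 6.62% of all are. In 3-day TAC against sham the authors' deposited table has 13 mitosis genes higher and 2 lower of 21 tested, where it calls 17.3% of all higher and 18.3% lower. In 10-day TAC against sedentary fibroblasts the authors' deposited table has 13 higher and 1 lower of 21, where 25.6% and 15.8% of all are. In 4-day swim against 3-day TAC the authors' deposited table has 0 mitosis genes higher and 15 lower of 19, where 3.4% of all are higher and 4.83% lower. In 10-day swim against 10-day TAC the authors' deposited table has 0 higher and 17 lower of 19, where 10.2% and 13.4% of all are. For 4-day swim against sedentary fibroblasts the authors' deposited table has 3 mitosis genes higher and 2 lower of 19, and 5 of 16 replication genes higher, where 21.1% of all are higher and 16.4% lower. For MI against 3-day TAC the authors' deposited table has 6 mitosis genes higher and 5 lower of 24. Of 16 replication genes it has 0 higher and 5 lower there. In that comparison it calls 22.2% of all genes higher and 17.3% lower.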

How the data were processed

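RNA was measured in 22 libraries, 19 of fibroblasts in 7 groups and 3 of cardiomyocytes, grouped by the labels' descriptions and characteristics. The authors deposited FPKM per gene and library, with confidence bounds (44 columns, not used), and a table of pairwise tests with p-values, q-values and log2 fold changes, per the file headers. Cufflinks 2.0.2 and mm10 are named in the submitters' processing notes; which program aligned the reads, and to which annotation, is not given in the sources used here. Deposited FPKM were taken as log2(FPKM + 1), filtered at 1 FPKM in at least 2 libraries, and fitted with limma 3.58.1 in R 4.3.3 (eBayes with trend and robust settings, all fibroblast groups in 1 fit, no covariates), with Benjamini-Hochberg adjustment over all genes tested and a threshold of 0.05. The deposited log2 fold changes of the authors' table were not used, and only its calls were counted. The fit was tested on simulated data. Every member could be named; values per library were given at least for Mki67, Top2a, Pcna, Ccnb1, Ccnd1, Cdkn1a and Cdkn2a and for the most abundant member of each role, and in each comparison the 2 largest and 2 smallest called changes and up to 4 genes of each pathway list were eligible. The members and lists were chosen with earlier results of these data known. Transcript lengths came from the longest protein-coding transcript of the reference annotation, and a trend with length and GC content was removed as an alternative, with a spline of 4 degrees of freedom. Depth estimates rest on the smallest steps of FPKM and limit low genes by counting error only. Alternatives were the pseudocount, the filter, TPM scaling, equal medians, plain eBayes, fits of the compared groups alone, single libraries left out and the replicate block.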

Additional observations from a re-analysis of the deposited data

Results flagged for a closer look

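The difference between the early effects of the 2 treatments, 3-day TAC against sham minus 4-day swim against sedentary fibroblasts, was tested directly with limma over 9425 genes, and 254 of them (2.69%) passed, 0.70% with a larger value in TAC. Among the members 5 passed, all with the larger value in TAC. Ube2c differed by 1.72 on the log2 scale (limma adjusted p = 0.0156) and Birc5 by 1.57 (limma adjusted p = 0.0277). Tk1 differed by 1.30 (limma adjusted p = 0.0203), Cdk1 by 1.24 (limma adjusted p = 0.0343) and Cdc20 by 0.95 (limma adjusted p = 0.0372). The control groups of the 2 effects differ (sham and sedentary), as do the days (3 and 4), and the part of either in these values was not tested.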

How the results depend on the processing

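Counts of members called are given here beside the value of the report. Without a filter all 46 genes were in the fit, so those counts have another base. With no filter, a pseudocount of 0.1 and the trend removed, 7.19% of all genes were higher in MI against sedentary fibroblasts and 4.55% against sham. Against sedentary fibroblasts 34.3% were higher in 10-day TAC, 31.8% in 4-day swim and 22.1% in 10-day swim. The shares lower there were 24%, 26.4% and 16%, and 24.5% in 3-day TAC against sham. In MI against sedentary fibroblasts the 14 higher genes became 24 with no filter, 8 with the same median in every library, 9 with only the groups compared, 28 with no filter and a pseudocount of 0.1, 28 with the length and GC trend also removed, and 0 to 16 with single libraries left out (0 without the second MI library); the 1 lower gene became 0 to 1. In MI against sham the 8 higher genes became 5 with a filter in at least 6 libraries, 14 with TPM, 5 with equal medians, 5 with plain eBayes, 0 with only the groups compared, 15 with no filter, a pseudocount of 0.1 and the trend removed, and 0 to 8 with single libraries left out. In 3-day TAC against sham the 2 lower genes became 1 with the trend removed, 0 with only the groups compared, 1 with no filter and a pseudocount of 0.1, 1 with both, and 0 to 1 with single libraries left out. In 10-day TAC against sedentary fibroblasts the 20 higher genes became 35 with no filter, a pseudocount of 0.1 and the trend removed, and the 1 lower gene became 4 with TPM, 2 with equal medians, 0 with the trend removed, 2 with no filter and a pseudocount of 0.1, and 0 with both. In 4-day swim against sedentary fibroblasts the 6 higher genes became 2 with TPM, 12 with no filter and a pseudocount of 0.1 and 12 with the trend also removed, and the 1 lower gene became 2 with no filter, 7 with TPM, 4 with the trend removed, 3 with no filter and a pseudocount of 0.1, and 4 with both. In 10-day swim the 2 higher genes became 1 with no filter, 0 with TPM, 1 with equal medians, 6 with no filter, a pseudocount of 0.1 and the trend removed, and 1 to 2 with single libraries left out; the 1 lower gene became 3 with TPM, 2 with the trend removed, 2 with no filter and a pseudocount of 0.1, 3 with both, and 0 to 1 with single libraries left out.

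In MI against 3-day TAC the 1 higher gene became 10 with no filter, 6 with TPM, 0 with the trend removed, 9 with no filter and a pseudocount of 0.1, and 0 to 3 with single libraries left out; the 9 lower genes became 2 with TPM and 3 to 14 with single libraries left out. In 10-day against 3-day TAC the 0 higher genes became 1 with TPM. In 10-day swim against 10-day TAC the 1 higher gene became 0 with no filter, 0 with the trend removed, 0 with no filter and a pseudocount of 0.1, 0 with both, and 0 to 1 with single libraries left out, and the 15 lower genes became 26 with no filter, a pseudocount of 0.1 and the trend removed. In cardiomyocytes against fibroblasts the 3 higher genes became 8 with no filter, a pseudocount of 0.1 and the trend removed, and the 7 lower ones 11 with TPM, 11 with no filter and a pseudocount of 0.1 and 11 with both. With no filter, a pseudocount of 0.1 and the trend removed, 8.39% of all genes were higher and 14.7% lower in 10-day swim against 10-day TAC. Between cardiomyocytes and fibroblasts 37.1% were higher and 36.5% lower in that fit. With the filter kept and the trend removed 17.2% were lower in 3-day TAC against sham. Against sedentary fibroblasts 17.9% were lower then in 10-day TAC, 15.3% in 4-day swim and 5.37% in 10-day swim. The cause of the changes in these counts was not tested. The 2 alternatives without a filter and with a pseudocount of 0.1 were chosen after seeing the data.

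Replication minus mitosis with a pseudocount of 0.1 was 0.462 in MI, 2.01 in 10-day swim, 1.99 in 4-day swim, 1.09 in 10-day TAC, 1.13 in 3-day TAC, 1.15 in sham, 0.963 in cardiomyocytes and 1.26 in sedentary fibroblasts. Over only the genes that pass the filter it was -0.119 in MI, 0.570 in 10-day swim, 0.437 in 4-day swim, -0.236 in 10-day TAC, -0.345 in 3-day TAC, 0.385 in sham and -0.0554 in cardiomyocytes, and with TPM 0.60 in 4-day swim and 0.227 in cardiomyocytes. Some mitosis genes pass the filter only through MI and TAC libraries, so the filter itself favours a lower difference there. With the trend removed, Mcm4 (0.082) and Ccnd2 (0.033, and 0.21 with no filter) in 3-day TAC against sham and Tk1 (-0.056) in cardiomyocytes against fibroblasts turned their signs. Over 123 values of single members, 1666 alternative values kept direction and side of the threshold, 240 lost the call and 4 turned. With a replicate block the counts were 10 higher and 1 lower in MI against sedentary fibroblasts, and 4 higher and 7 lower in cardiomyocytes against fibroblasts; deviations of same-numbered libraries correlated at -0.168 and -0.357 in the MI pairs and at 0.065 to 0.314 in the cardiomyocyte pairs, so the numbers were not taken to pair them.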
